A study of Mus musculus with 3 samples.

Results

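The receptors for luteinising hormone, follicle-stimulating hormone and prolactin, with prolactin itself and the JAK/STAT pathway that the prolactin receptor uses, were followed in ovaries of mice with a Cre-driven deletion of Bmal1. The genes were Lhcgr, Fshr, Prlr, Prl, Jak2, Stat5a, Stat5b, Cish, Socs2 and Socs3, taken as every non-control probe whose gene name in the scanner files equals 1 of these 10 symbols. They had 16 probes of the 41174 different probes on the array, and 10 of the 27975 genes named. Of the 16, 15 were among the 26437 probes tested, for which at least 1 genotype had to be well above the local background in each of its 3 pools. 6 of the 10 genes were read by 1 probe each.

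Two-colour Agilent arrays, on which 2 RNA pools compete for the same spots, were used 3 times, each with a cKO pool in the green dye (cy3) and a control pool in the red dye (Cy5). The cKO animals were Bmal1 fx/fx females carrying Cre recombinase under the sf-1 promoter (Bmal1fxSf-1Cre), and the controls were Bmal1 fx/fx females without Cre, which the labels also call wild type. Animals of both genotypes were C57Bl/6J, 10 weeks old and killed at ZT12, the end of the light phase, at 3.5 days post copulation, with both Bmal1 alleles floxed. Each pool held RNA from 3 animals, so each genotype was measured in 3 pools made from 9 animals. Sf-1 (Nr5a1) is active in steroid-producing cells of the ovary and also in the adrenal cortex, the gonadotrophs of the pituitary and part of the hypothalamus, so the ovary is not the only organ in which such a Cre can act. No Cre-carrying animals without floxed alleles were analysed here, and no dye was swapped, so genotype and dye cannot be told apart.

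Prl RNA was higher in cKO than in control ovaries on all 3 arrays and was the 1 probe of these genes to pass the test. It qualified for the test through the cKO channel only. The fold was 21.1 on array 2, the 1 array on which control signal was well above background, and is uncertain on arrays 1 and 3. The call was lost in 6 of the 12 alternatives that kept the probe. Lhcgr was about equally lower on the 3 arrays, with a mean log2 ratio of -1.26, and did not pass the test over all probes. Fshr, Prlr, Jak2, Cish, Socs2 and Socs3 had probes with mean log2 ratios between -0.53 and 0.31, Stat5a averaged 0.65 and the Stat5b probes between 0.31 and 0.39, and none of these passed.

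Luteinising hormone and follicle-stimulating hormone act on the ovary through G protein-coupled receptors that raise cyclic AMP and so drive follicle growth, ovulation and steroid synthesis. Prolactin, a hormone of the anterior pituitary that mating releases in surges in rodents, binds a cytokine receptor whose bound kinase JAK2 phosphorylates STAT5A and STAT5B. The STAT5 proteins then switch on genes that include Cish and the Socs genes, whose products damp the signal, and in rodents this pathway keeps the corpus luteum secreting progesterone in early pregnancy. BMAL1, with CLOCK, binds E-boxes, of which CACGTG is the canonical form, and STAT5 binds sites of the form TTCNNNGAA.

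Promoter sequences (RefSeq, GRCm38.p6, 250 bases before to 30 bases after the annotated start) were held for 9 of the 10 genes, in 13 windows. 4 are shown, of the genes with the largest changes (Prl and Lhcgr) and of those in which a motif was found nearest to the start (Fshr for CACGTG, Cish for TTCNNNGAA), with each match in capitals.

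Lhcgr promoter, chr17:88791985-88792264, strand -: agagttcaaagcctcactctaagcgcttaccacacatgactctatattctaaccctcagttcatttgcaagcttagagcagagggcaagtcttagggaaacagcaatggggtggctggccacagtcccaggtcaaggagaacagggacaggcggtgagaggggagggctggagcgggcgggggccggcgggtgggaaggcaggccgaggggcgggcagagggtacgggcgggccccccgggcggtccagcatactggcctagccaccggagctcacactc

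Fshr promoter, chr17:89200646-89200925, strand -: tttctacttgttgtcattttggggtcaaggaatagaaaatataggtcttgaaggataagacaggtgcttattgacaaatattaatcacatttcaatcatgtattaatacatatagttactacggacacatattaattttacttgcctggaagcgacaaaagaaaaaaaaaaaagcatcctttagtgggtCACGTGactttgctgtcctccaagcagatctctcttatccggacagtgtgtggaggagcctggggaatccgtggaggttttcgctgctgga

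Prl promoter, chr13:27057320-27057599, strand +: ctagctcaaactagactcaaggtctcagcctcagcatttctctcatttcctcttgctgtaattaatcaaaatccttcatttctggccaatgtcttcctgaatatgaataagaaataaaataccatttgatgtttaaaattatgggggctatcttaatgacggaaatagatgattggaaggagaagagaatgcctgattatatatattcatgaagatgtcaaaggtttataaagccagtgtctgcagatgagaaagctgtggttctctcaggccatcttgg

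Cish promoter, chr9:107296409-107296688, strand +: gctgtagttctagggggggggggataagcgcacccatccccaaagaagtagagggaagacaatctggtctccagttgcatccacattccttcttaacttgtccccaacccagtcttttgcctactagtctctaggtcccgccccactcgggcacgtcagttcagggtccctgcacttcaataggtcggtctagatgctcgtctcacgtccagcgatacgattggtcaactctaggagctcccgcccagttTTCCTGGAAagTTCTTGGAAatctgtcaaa

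CACGTG occurred in 1 of the 13 windows, that of Fshr, where it begins at position -61 from the start, and TTCNNNGAA in 3 windows, those of Cish, Socs3 and the second window of Prlr. The Cish window holds TTCNNNGAA at the start base and again 11 bases after it. The Socs3 match begins at position -154 and the Prlr match at -110. Both motifs read the same on both strands and cannot overlap each other. Over all 32851 promoter windows of the same length, 6.79% held CACGTG and 7.83% held TTCNNNGAA. The windows of Lhcgr and Prl hold neither string, which says nothing of sites elsewhere.

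The log2 ratios of the 3 arrays were weakly related over all probes. Over 26429 probes the log2 ratios of arrays 1 and 2 correlated at Pearson r = 0.476, those of arrays 1 and 3 at 0.0720 and those of arrays 2 and 3, which share a slide, at -0.215 (a description across probes). Between 67.4 and 69.1% of spots were well above background in the cKO channel and between 62.9 and 65.8% in that of the controls. Precision is limited by having 3 arrays. The p-values rest on the spread between 3 pooled pairs after limma pulled it toward the spread of all probes. Markers of ovarian cells were present, with all 9 luteal, 9 granulosa and 9 oocyte markers bright enough to be tested. Some tissue markers also moved by array. The median log2 ratio of 3 oviduct epithelium markers was 1.43, -1.24 and 0.51 on arrays 1 to 3, and that of 6 ovarian surface epithelium markers 1.18, -0.29 and -0.52. The medians of 9 oocyte markers (-0.21, -0.06 and -0.09) and of 7 endothelium markers (-0.13, 0.07 and -0.16) varied less. Arntl, the symbol of the targeted gene Bmal1, was read by 1 probe. The log2 ratio of that probe was 0.26, 0.10 and -0.28 (arrays 1 to 3) and averaged 0.03 ± 0.28 (SD, n = 3). It is a probe whose position relative to the deleted part is not known here, so it does not check the deletion.

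Across all 26437 probes tested, limma with Benjamini-Hochberg adjustment called 59 (0.223%) at an adjusted p under 0.05, 30 higher (0.113%) and 29 lower (0.11%) in cKO. Of the 15 tested probes of these genes, 1 was called higher (Prl, which qualified for the test through the cKO channel only) and 0 were called lower. At an unadjusted p under 0.05 they numbered 3 of 15 (Prl and Stat5a higher, Lhcgr lower), where 5.31% of all probes passed that line. 5 were higher on all 3 arrays and 4 were lower on all 3, where 11.6% of all probes were higher and 11.6% lower on all 3. The median log2 ratio over the 15 probes was 0.06, against -0.01 over all probes, and the median SD between arrays was 0.27, against 0.42. None was saturated in either channel.

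**Figure D1:**
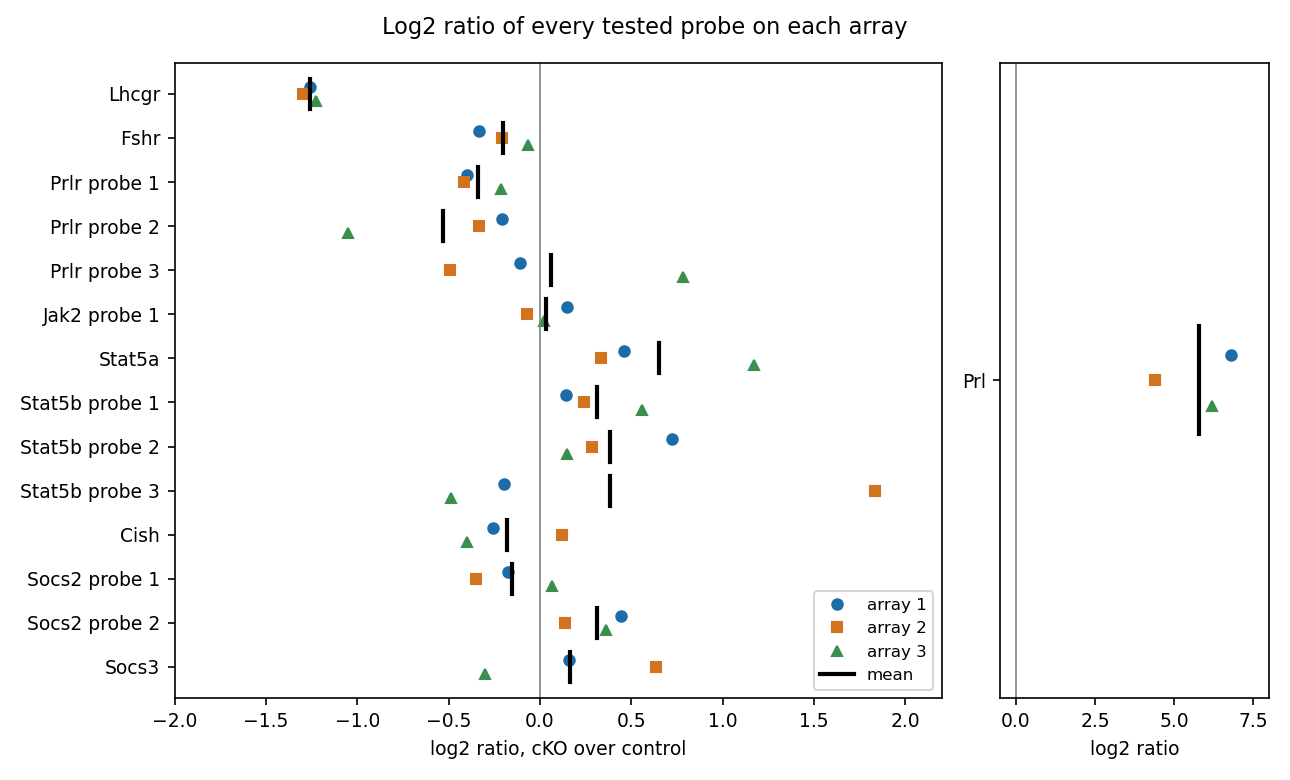
Log2 ratio of cKO over control for the 15 tested probes of the 10 genes, with 1 symbol per array and a bar at the mean of the 3 arrays; Prl is drawn on an axis of its own. The 3 Lhcgr values lie between -1.30 and -1.23 and the 3 Prl values between 4.40 and 6.80, while most other probes straddle or adjoin 0.

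Lhcgr encodes the receptor for luteinising hormone, made by theca, mature granulosa and luteal cells. Its probe had processed signals (background-subtracted and dye-normalised intensity) of 1180, 1819 and 2238 in the cKO pools of arrays 1 to 3, against 2830, 4468 and 5245 in the control pools. Every cKO pool was below every control pool, also on the level scale given next. The log2 ratios were -1.26, -1.30 and -1.23, a mean of -1.26 ± 0.034 (SD, n = 3) or 2.40-fold lower, with a moderated SE of 0.21 and a 95% interval of -1.78 to -0.74. The unadjusted p was 0.00101, and limma's adjusted p over all probes was 0.150. The 3 ratios were closer together than those of nearly all probes, since 0.647% of probes had a smaller SD, and the mean held rank 162 from the lowest of 26437. In bulk tissue, fewer cells of a type and less RNA per cell cannot be told apart.

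The level of Lhcgr itself moved between pools of 1 genotype. On the log2 scale, relative to the 75th percentile of processed signal in the same channel and array, it lay at -0.22, 0.65 and 0.43 in the cKO pools and at 1.03, 1.92 and 1.66 in the control pools. Both pools of array 1 were the lowest of their genotype, so the ratio was steadier than either level. Of the cell types that carry the receptor, the 9 luteal markers had median log2 ratios of 0.15, -0.26 and -0.25 on arrays 1 to 3, with a median level of 4.83 to 5.72 in cKO pools and 5.82 to 5.93 in control pools on the same scale. That list includes Star, which was called lower in cKO, at a mean log2 ratio of -4.09. In the control pools of arrays 1 and 3 Star was itself the median. The luteal levels of the 2 genotypes thus do not rest on the same gene there. The 9 granulosa markers had median log2 ratios of -0.68, -0.22 and 0.46, with median levels of 3.24 to 3.65 in cKO and 3.74 to 3.91 in control pools, and the 5 theca markers with a probe had 0.15, 0.71 and -0.98. The medians of the 7 macrophage markers were 0.80, 1.00 and -0.31, and those of the 6 smooth muscle markers 0.23, 1.16 and -1.21. The median ratios of all 5 lists differed between arrays by more than the Lhcgr ratio did. The level of Lhcgr itself ranged over 0.87 in cKO and 0.89 in control pools. The median level ranged over 0.90 and 0.12 for luteal, 0.41 and 0.16 for granulosa and 0.44 and 0.73 for theca markers. It ranged over 1.30 and 0.96 for macrophage and 1.73 and 0.92 for smooth muscle markers. Lhcgr was read by 1 probe and each list by a median over several genes, so these ranges are unlike measures. The part of these cell types in the Lhcgr ratio was not tested.

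By root mean square difference of the log2 ratios over the 3 arrays, the genes nearest to Lhcgr among 17864 genes, each read by its brightest tested probe, were Dhcr7 (0.125), Olfr1410 (0.133) and Tbxa2r (0.165). Dhcr7, the last enzyme of cholesterol synthesis, had log2 ratios of -1.42, -1.44 and -1.23. Olfr1410 is an olfactory receptor gene, at -1.16, -1.38 and -1.04, and Tbxa2r, the thromboxane A2 receptor, had -1.06, -1.23 and -1.04.

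**Figure D2:**
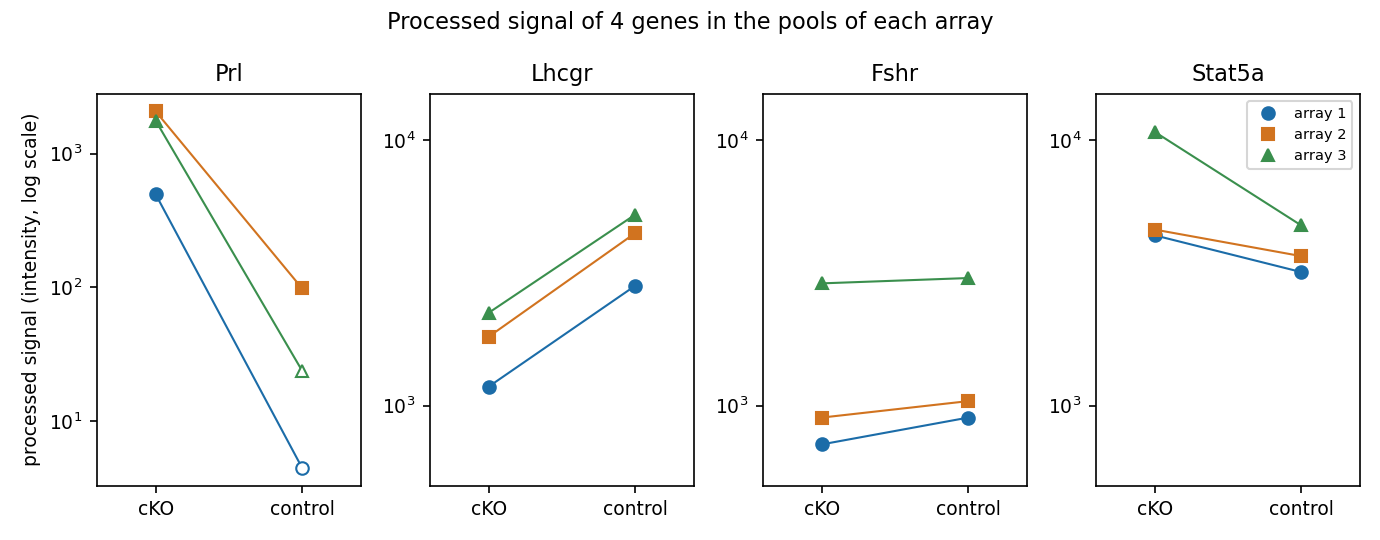
Processed signal (intensity, log axis) of Prl, Lhcgr, Fshr and Stat5a, with the cKO pool left and the control pool right and a line joining the pools of 1 array; open symbols mark pools in which the probe was not well above background, and the Prl panel has its own axis range. The Prl signal is 497 to 2071 in cKO pools and 4.47 to 98.2 in control pools; Fshr is high on array 3 in both genotypes.

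Fshr, the receptor for follicle-stimulating hormone on granulosa cells, had signals of 715, 902 and 2890 in the cKO pools of arrays 1 to 3 and 902, 1041 and 3027 in the control pools. The genotypes overlapped, and array 3 was high in both. The log2 ratios were -0.34, -0.21 and -0.07, a mean of -0.20 ± 0.13 (SD, n = 3) with a 95% interval of -0.73 to 0.33, and limma's adjusted p was 1.00. Relative to the 75th percentile, the log2 level on array 3 exceeded the mean of arrays 1 and 2 by 1.45 in cKO and by 1.26 in control pools, against a mean size of 0.19 for the difference between genotypes. Median marker levels on array 3 also exceeded the mean of arrays 1 and 2 in both genotypes for oviduct epithelium, oocyte and theca. The excess was 1.71 in cKO and 0.65 in control pools for oviduct epithelium, 0.67 and 0.77 for oocyte and 0.31 and 0.13 for theca. In control pools the oviduct epithelium level was nevertheless higher on array 2 (0.57) than on array 3 (-0.26). The theca level there was higher on array 1 (-0.71) than on array 3 (-0.95). The granulosa median differed by 0.29 in cKO and -0.10 in control pools, and that of all probes by -0.02 and -0.01. Other lists were below that mean in cKO and above it in control pools. These were smooth muscle (-1.59 and 0.56), macrophage (-1.19 and 0.76), ovarian surface epithelium (-0.46 and 0.32) and luteal markers (-0.28 and 0.07). The endothelium median was below it in both genotypes (-0.32 and -0.21). Whether these differences share a source was not tested.

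Prlr, the prolactin receptor, had 3 probes that matched different transcript records. Their first 30 of 60 bases, 5′ to 3′, are shown because the probes disagree on array 3.

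Prlr probe 1 (brightest), chromosome 15: gactttccattctgaaaacaatgttgattc

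Prlr probe 2, chromosome 15: cttgaaagacacaactgtgtggatcattgt

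Prlr probe 3, chromosome 15: tctccatccactttgtagggacaacatgga

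Probe 1 (A_52_P602987) had signals of 16571, 20338 and 21394 in the cKO pools and 21822, 27105 and 24815 in the control pools, and log2 ratios of -0.40, -0.41 and -0.21, a mean of -0.34 ± 0.11 (SD, n = 3). Probe 2 (A_52_P458279) had 3893, 4126 and 3535 in cKO pools and 4501, 5201 and 7322 in control pools, with log2 ratios of -0.21, -0.33 and -1.05, a mean of -0.53 ± 0.45. In both probes the cKO pool was below the control pool of its own array on all 3 arrays, while on the level scale used for Lhcgr the genotypes overlapped. Probe 3 (A_51_P264673) had 3845, 3653 and 5247 in cKO pools and 4152, 5150 and 3051 in control pools, with log2 ratios of -0.11, -0.50 and 0.78, a mean of 0.06 ± 0.66. On arrays 1 and 2 the 3 probes ran the same way, lower in cKO. On array 3 they spread from -1.05 to 0.78, so no single Prlr ratio can be given for that pair of pools. None passed the test (limma's adjusted p 1.00 for each).

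**Figure D3:**
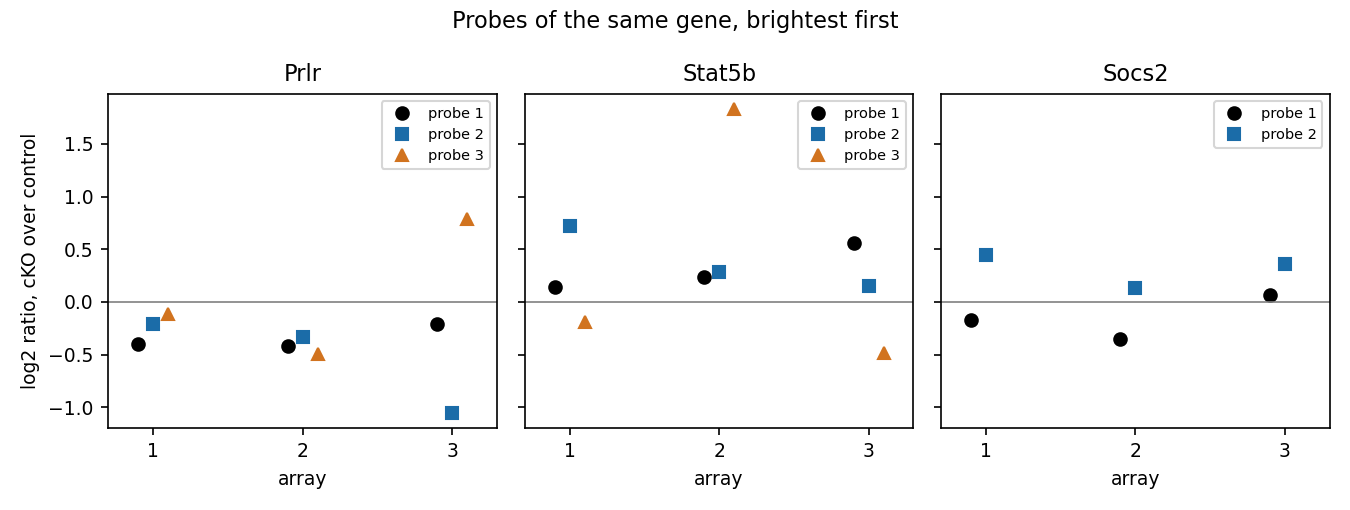
Log2 ratio of cKO over control on each array for the tested probes of Prlr, Stat5b and Socs2, with 1 symbol per probe in order of brightness. The Prlr probes separate on array 3 (-1.05 to 0.78), the dimmest Stat5b probe stands at 1.83 on array 2, and the Socs2 probes keep a gap on every array.

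Prl encodes prolactin, which is made chiefly by pituitary lactotrophs. Its probe had signals of 497, 2071 and 1766 in the cKO pools of arrays 1 to 3, against 4.47, 98.2 and 23.8 in the control pools. Every cKO pool was above every control pool and well above background, whereas the control pools were well above background on 1 of 3 arrays (array 2). The log2 ratios as the scanner software gives them were 6.80, 4.40 and 6.21, a mean of 5.80 ± 1.25 (SD, n = 3), and limma's adjusted p was 0.0221. Because the control signal on arrays 1 and 3 was not well above background, the fitted mean and its p rest on ratios to background there. The fold is therefore uncertain on those arrays. On array 1 it was 49.0 over a signal of 10.1, the lowest control signal of any probe well above background. On array 3 it was 74.2 over the control signal of Prl itself. Neither divisor is a detection limit of this probe, so neither fold is a strict bound. On array 2 the cKO pool was 21.1-fold higher. Prl passed the filter through the cKO channel only.

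Background correction by normexp was also tried, with an offset added to both channels, which pulls the ratios of dim probes toward 0. With it and loess normalisation, the mean log2 ratio of Prl was 2.77 and limma's adjusted p was 0.113. With median centring in place of loess, that mean was 2.91 (adjusted p 0.134, limma). From the scanner's ratios it was 5.60 without array 3 (adjusted p 0.0614, limma), 6.50 without array 2 and 5.31 without array 1, that is within the slide of arrays 2 and 3, and 6.05 with the slide as a block. The direction was the same in all 12 alternatives that kept the probe, and the adjusted p stayed under 0.05 in 6 of them. With outlier spots kept, with 1 probe a gene or with an intensity trend, the ratio was the same 5.80. Without array 2 the SE was 0.434 for Prl and Lhcgr alike. It also hardly differed between them without array 1 (0.485 and 0.482) or with the slide as a block (0.420 and 0.418). In those fits the spread of Prl itself had little weight, so the 6 are not independent support.

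Other genes of pituitary hormone cells were read beside Prl, from a list of 4 genes (Prl, Pou1f1, Gh and Pomc) of which 3 had a probe, 2 were tested and 1 (Prl) was called. Gh and Pomc mark somatotrophs and corticotrophs, so the list holds no second gene particular to lactotrophs. Gh, growth hormone, was too dim to be tested, with signals of 8.03, 92.9 and 45.9 in cKO pools, well above background on 2 of 3 arrays, and 4.55, 7.09 and 10.2 in control pools, well above background on 0 of 3. Pomc, the precursor of adrenocorticotropic hormone, had 587, 980 and 807 in cKO pools and 668, 585 and 494 in control pools, a mean log2 ratio of 0.42 ± 0.53 with limma's adjusted p of 1.00. The log2 ratios of Gh, 0.82, 3.71 and 2.17, were above 0 on every array but are to control signals not well above background. Summed over Gh and Pomc, of which Pomc gave most, the signal was 595 to 1073 in cKO pools and 504 to 673 in control pools. Cga, the subunit that the glycoprotein hormones share, had log2 ratios of 0.12, 0.69 and 1.17 from signals of 24.3 to 68.4, a mean of 0.66 ± 0.53 (adjusted p 0.955, limma). Lhb, the specific subunit of luteinising hormone, averaged -0.19 ± 0.06, and Fshb, that of follicle-stimulating hormone, was too dim to be tested. Which cells the Prl RNA came from was not tested.

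Of the placental genes of the prolactin family, 20 had a probe and 2 were bright enough to be tested. Prl3b1, a placental lactogen, had log2 ratios of -0.61, -0.35 and -0.33, and Prl3d1, another, had -0.17, -0.25 and 0.12. With the hormone subunits and Gh, 0 of the 4 genes tested in this list of 25 were called in either direction, where 0.246% of all genes, read by the brightest tested probe of each, were called (0.129% higher, 0.118% lower). Their median log2 ratio was -0.14.

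Jak2, the kinase bound to the prolactin receptor, had signals of 1850, 1586 and 2571 in the cKO pools and 1673, 1667 and 2534 in the control pools by its brighter probe. The genotypes overlapped, and the log2 ratios of 0.15, -0.07 and 0.02 averaged 0.03 ± 0.11 (SD, n = 3; 95% interval -0.49 to 0.56). The second Jak2 probe was too dim to be tested, with signals of 19.2 to 37.1 in cKO pools and 29.3 to 32.2 in control pools and log2 ratios of 0.31, 0.17 and -0.74.

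Stat5a, a transcription factor that JAK2 activates, had signals of 4385, 4609 and 10754 in the cKO pools and 3189, 3661 and 4780 in the control pools. The cKO pool was above the control pool on every array. On the level scale used for Lhcgr, the cKO pools lay at 1.68, 2.00 and 2.70 and the control pools at 1.21, 1.63 and 1.53, without overlap. The log2 ratios of 0.46, 0.33 and 1.17 averaged 0.65 ± 0.45 (SD, n = 3) or 1.57-fold higher, with a 95% interval of 0.02 to 1.29, an unadjusted p of 0.0456 and an adjusted p of 0.909 by limma. Array 3 supplied the highest ratio.

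Stat5b, the close paralog of Stat5a, had 3 tested probes. The brightest (A_52_P53698) had signals of 16994, 12781 and 19081 in cKO pools and 15386, 10822 and 12946 in control pools, with log2 ratios of 0.14, 0.24 and 0.56, a mean of 0.31 ± 0.22 (SD, n = 3). The second (A_51_P281938) had 198, 140 and 228 in cKO pools and 120, 115 and 205 in control pools, with log2 ratios of 0.72, 0.29 and 0.15, a mean of 0.39 ± 0.30. Both were higher in cKO on all 3 arrays, but the first was furthest from 0 on array 3 and the second on array 1. The dimmest (A_52_P663027), matched to another transcript record, had 70.9, 115 and 47.8 in cKO pools and 81.2, 32.3 and 67.0 in control pools, with log2 ratios of -0.19, 1.83 and -0.49, a mean of 0.38 ± 1.26. Its mean rests on array 2 and was -0.34 without it. The adjusted p by limma was 1.00 for each of the 3 probes.

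Cish encodes an SH2-domain inhibitor of STAT5 signalling that STAT5 itself induces, and its promoter window above holds the 2 TTCNNNGAA strings. Its signals were 26805, 24761 and 20871 in the cKO pools and 32090, 22820 and 27520 in the control pools. The genotypes overlapped, the cKO pool being below the control pool on arrays 1 and 3 and above it on array 2, and the log2 ratios of -0.26, 0.12 and -0.40 averaged -0.18 ± 0.27 (SD, n = 3; 95% interval -0.74 to 0.38).

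Socs2, an inhibitor best known for limiting growth hormone signalling in mice, had 2 probes that differed in sign. The brighter (A_51_P107362) had signals of 35223, 31089 and 53678 in cKO pools and 39774, 39699 and 51211 in control pools, with log2 ratios of -0.18, -0.35 and 0.07, a mean of -0.15 ± 0.21. The other (A_52_P84037) had 2507, 2456 and 3727 in cKO pools and 1841, 2236 and 2903 in control pools, with log2 ratios of 0.45, 0.14 and 0.36, a mean of 0.31 ± 0.16. The second probe was the higher of the 2 on every array, and the direction of Socs2 depends on the probe. Socs3, an inhibitor induced by many cytokines, had signals of 7184, 7001 and 6009 in cKO pools and 6440, 4501 and 7404 in control pools. Its log2 ratios of 0.16, 0.64 and -0.30 averaged 0.16 ± 0.47, with mixed sign, as for Cish. The adjusted p by limma was 1.00 for Cish, for both Socs2 probes and for Socs3.

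Around these genes, the other JAK, STAT, SOCS and PIAS genes and their phosphatases were read by the brightest tested probe of each gene, by which 23 of 17864 genes were called higher and 21 lower. Of the 25 genes in this list all were tested and 0 were called, and 0 were higher and 3 lower on all 3 arrays, where 11.5% of all genes were higher and 12.6% lower on all 3. The median log2 ratio of the list was 0.01, against -0.02 over all genes. The phosphatase gene Ptpn6 averaged -0.63 ± 0.76, with -0.03, -0.36 and -1.48 on the 3 arrays. Jak3, a kinase of lymphoid cytokine receptors, averaged -0.37 ± 0.56, and Stat3 averaged 0.33 ± 0.40.

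Of 10 other receptors that signal through JAK2, 9 were tested, 0 were called and the median log2 ratio was 0.06. Csf2rb, the common beta chain of the receptors for IL-3, IL-5 and GM-CSF, had 1.48, 0.61 and 0.24 on arrays 1 to 3 by its brightest probe, and -0.20, -0.29 and -0.24 by a second. Epor, the erythropoietin receptor, averaged -0.46 ± 0.27, Ifngr1, a chain of the interferon gamma receptor, 0.39 ± 0.19, and Lifr, the receptor for leukaemia inhibitory factor, -0.18 ± 0.39. None of the 4 passed, at adjusted p of 0.869 for Csf2rb and 1.00 for the others by limma.

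Of 14 partners and regulators of the gonadotropin receptors, all were tested, 0 were called and the median log2 ratio was -0.06. Mvk, mevalonate kinase, which in rat ovary binds the Lhcgr mRNA and lowers its stability, had log2 ratios of -0.88, -0.57 and -1.13 (mean -0.86 ± 0.28, adjusted p 0.471) by its brightest probe and -0.68, -0.54 and -0.99 (mean -0.74 ± 0.23) by its other. Appl2, an adaptor that binds the FSH receptor complex, had -0.98, -0.46 and -1.15 (mean -0.86 ± 0.36, adjusted p 0.524). Both were lower in cKO on all 3 arrays, at unadjusted p of 0.00995 for Mvk and 0.0122 for Appl2, the 2 genes of this list under 0.05 where 5.89% of all genes were, and did not pass limma's adjustment. Gipc1, whose product binds the tail of the human LH receptor, averaged -0.31 ± 0.61, and Grk5, a receptor kinase, 0.28 ± 0.12, higher on all 3 arrays.

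Of 19 genes induced by LH or FSH in the follicle, 16 were tested, and the median log2 ratio was 0.05. Of the 16, 0 were called higher and 1, Star, lower, where 0.129% of all genes were called higher and 0.118% lower. On all 3 arrays, 3 were higher and 3 lower, where 11.5% of all genes were higher and 12.6% lower. Star, the protein that carries cholesterol into mitochondria for steroid synthesis, had signals of 4637, 6171 and 5414 in the cKO pools and 77765, 97780 and 101357 in the control pools. Every cKO pool was below every control pool, and the log2 ratio averaged -4.09 ± 0.12 (SD, n = 3; adjusted p 0.0208, limma). No gene of the list was called under normexp with median centring, with arrays scaled to a common spread or with no filter on dim probes. Egr1, an immediate early transcription factor, had 0.75, 0.67 and 0.82 (mean 0.75 ± 0.07; unadjusted p 0.0126, adjusted p 0.532). Cyp19a1, aromatase, averaged 0.79 ± 1.28 by its brightest probe, with -0.14, 0.24 and 2.25. The high ratio of that probe on array 3 came with a control signal of 2802, against 7805 and 7180 in the other control pools. A second Cyp19a1 probe averaged 0.79 ± 0.68, with 0.21, 0.64 and 1.53 (adjusted p 0.886, limma). Inha, the inhibin alpha subunit, averaged -0.49 ± 0.22 and was lower on all 3 arrays.

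Of 15 genes that prolactin controls in the corpus luteum or STAT5 in other tissues, 12 were tested, 0 were called and the median log2 ratio was -0.19. Of the 12, 0 were higher and 4 lower on all 3 arrays, where 11.5% of all genes were higher and 12.6% lower. Akr1c18, the enzyme that inactivates progesterone and that prolactin holds down in the rodent corpus luteum, had signals of 84608, 12455 and 60713 in the cKO pools and 11636, 16451 and 9585 in the control pools. The cKO pool was the higher on arrays 1 and 3 and the lower on array 2, so the log2 ratios of 2.86, -0.40 and 2.66 had a mean of 1.71 ± 1.83 (adjusted p 0.850, limma). Esr1, oestrogen receptor alpha, which prolactin raises in rat luteal cells, had -0.65, -0.99 and -1.24 by its brightest probe (mean -0.96 ± 0.30, with limma's unadjusted p 0.00639 and adjusted p 0.379). A second Esr1 probe, dim at signals of 15.3 to 30.1, had 0.35, -0.86 and -0.44 (mean -0.32 ± 0.62). Cdkn1b, an inhibitor of the cell cycle, had -0.50, -0.63 and -1.80 (mean -0.98 ± 0.72) by its brightest probe and a mean of -0.34 by its second. Hsd17b7, the luteal 17-beta-hydroxysteroid dehydrogenase first found as a protein bound to the prolactin receptor in rats, averaged -0.54 ± 0.43 by its brightest probe and -0.51 ± 0.19 by its second, both lower on all 3 arrays. By the brightest probe, Esr1, Cdkn1b and Hsd17b7 are 3 of the 4 genes lower on all 3 arrays, and none passed the test.

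**Figure D4:**
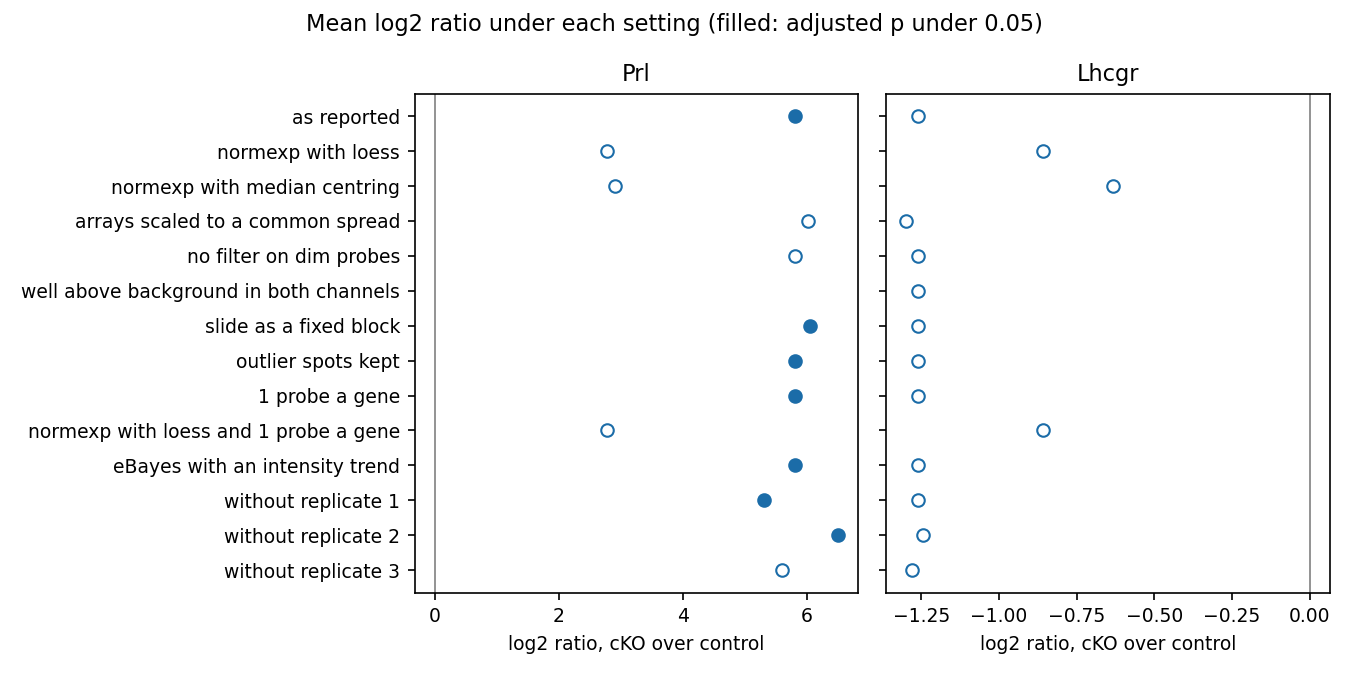
Mean log2 ratio of cKO over control for Prl and Lhcgr as reported and under each other setting tried, with 1 row per setting; filled symbols mark an adjusted p under 0.05 by limma. Prl lies above 0 in every row drawn, from 2.77 to 6.50, and has no value where both channels had to be above background; Lhcgr lies between -1.30 and -0.63 and is not filled in any row.

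Lhcgr kept its direction in all 13 alternatives, at -0.86 under normexp with loess and -0.63 under normexp with median centring, where the median of all probes tested was itself 0.12. It was -1.26 within the slide of arrays 2 and 3 and -1.26 with the slide as a block. Its adjusted p by limma ranged from 0.0766 to 0.687 over the alternatives. Lhcgr was well above background in every pool of either genotype.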

How the data were processed

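RNA of cKO and control ovary pools was co-hybridised on 3 arrays, each 1 replicate of the within-spot ratio, grouped by sample title because the genotype labels of arrays 2 and 3 end in the array's number. Per the file headers, Agilent Feature Extraction 9.1.3.1 made the deposited intensity values (local background subtracted, detrended, dye-normalised by a linear and a LOWESS step), the flags and other spot columns, and the deposited log10 ratio of red over green, so of control over cKO. The deposited value table holds the same log10 ratios (largest difference 0, median 0 on each array). For any further step, the tool is not given in the sources used here.

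The deposited log10 ratio was turned to a log2 ratio of cKO over control. Of 45018 spots, 1639 were controls and were dropped, as were spots marked as outliers (13, 4 and 0 by array), and spots of the same probe were averaged. Median SD among replicate spots was 0.051, 0.055 and 0.065 (198 probes), and over all probes tested the SD of the ratio was 0.54, 0.58 and 0.72. The 26437 probes kept were tested against 0 with lmFit and eBayes (limma 3.58.1, R 4.3.3; two-sided, Benjamini-Hochberg, threshold 0.05) after a check on simulated data. An exact sign permutation over 3 arrays cannot go below p = 0.25. Symbols were updated through RefSeq (GRCm38.p6), 26788 spots by accession, 6252 by symbol and 1810 by synonym. All probes of the 10 genes are given. Of each gene list up to 4 genes, and of each marker list up to 2, were eligible to be named by size of mean log2 ratio. A result for 1 of these is not reported here. The genes and lists were chosen with earlier results of these data known, so their counts are descriptions. Other settings tried are in the closing section. Probe positions in the genome were not used here, and promoters come from RefSeq.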

Additional observations from a re-analysis of the deposited data

How the results depend on the processing

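Over 184 re-computed values of the 15 probes, 167 kept direction and side of the threshold, 6 lost the call (all Prl) and 11 reversed; 8 probes never reversed. The number of probes called among the 10 genes (1, Prl) was 0 under normexp with loess, under normexp with median centring, with arrays scaled to a common spread, with no filter on dim probes, with the filter on both channels (which removes Prl, fewer probes being tested) and under normexp with loess and 1 probe a gene, and 0 to 1 on leaving out an array (0 without array 3). For Prl these gave 2.77 (adjusted p 0.113), 2.91 (0.134), 6.02 (0.0937), 5.80 (0.487) and 2.77 (0.0875), and 5.60 (0.0614) without array 3, by limma. The probes called over all (59, 50.8% higher) numbered 1 under loess (0% higher), 0 under median centring (3949 at an unadjusted p under 0.05), 9 when scaled (88.9% higher), 0 with no filter (2658 at an unadjusted p under 0.05), 287 with the slide as a fixed block, 31 under loess with 1 probe a gene (38.7% higher), 94 with an intensity trend, and 93 to 355 on leaving out an array (150 without array 1, 355 without array 2, 93 without array 3). The LH- or FSH-induced list (1, Star) had 0 under median centring, scaling and no filter. The prolactin or STAT5 list (0) had 1 with the slide as a fixed block and 0 to 1 on leaving out an array (1 without array 2). Reversed were Fshr (0.14), Prlr probes 1 (0.12) and 2 (0.0027) and Jak2 (-0.061) under median centring, which moved the median of all probes to 0.12; Jak2 under loess, also with 1 probe a gene (-0.29), and on leaving out an array (-0.026 without array 1, up to 0.083 without array 2); Prlr probe 3 when scaled (-0.023) and on leaving out an array (-0.30 without array 3, up to 0.34 without array 2); and, on leaving out an array, Stat5b probe 3 (-0.34 without array 2, up to 0.82 without array 3) and Socs3 (-0.072 without array 2, up to 0.40 without array 3). The cause of these moves was not tested. The slide as a random block could not be fitted on 3 arrays; the fixed block was chosen after seeing the data. The test of within-array ratios is itself paired by array. Signal over background limits Prl in control pools and the dim Jak2 probe. Dye and genotype cannot be told apart.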
